A study of Mus musculus with 4 samples.

Results

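Rab GTPases are small GTP-binding proteins that give each membrane compartment of a cell its identity. Exchange factors load them with GTP on the right membrane, effectors bind the GTP form to move, tether or fuse vesicles, and activating proteins end the cycle by speeding GTP hydrolysis. In killer lymphocytes the secretory, endosomal and lysosomal branches of this system carry receptors, cytokines and lytic granules. The genes described here are the rows of the deposited table named Rab followed by a number and, where present, a letter. Rab27a and Rab27b, which act at the last step of granule release, were left out. This left 57 genes of 54544 with a symbol, of which 22 were placed as secretory, 17 as endosomal, 15 as lysosomal and 3 in no compartment, each by its best-known site of action. The naming rule used no measured value.

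RNA came from T cells and natural killer (NK) cells that were sorted out of subcutaneous tumours of CT26, a mouse colon carcinoma line, in syngeneic BALB/C mice with no genetic change or drug named in the labels. Each cell type has 2 libraries, and number 1 was pooled from 4 mice and number 2 from 6 mice. The sources used here state no age, sex or sort gate, nor whether NK and T libraries of the same number came from the same mice. The comparison asks how the Rab genes of tumour NK cells differ from those of tumour T cells.

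The 4 libraries held 2067285 to 2892631 reads on named genes, of which ribosomal RNA genes took 36.9% to 52.4%, most in T pool 1. Values are counts per 1 M of a scaled library size (normalized CPM), and a single read was worth 0.354 to 0.551. The sort labels were met by Ncr1, an NK receptor, at 666 and 367 in NK pools 1 and 2 against 0 and 1.42 in T pools 1 and 2. Cd3e, a T cell receptor subunit, stood at 3.66 and 6.03 against 334 and 240.2. Trac, another T cell receptor gene, had means of 19.1 and 929, and Eomes, an NK-biased factor, of 356 and 26.8. The T libraries held both Cd4, at 206.5 and 116.6 in T pools 1 and 2, and Cd8a, at 113.4 and 204.1. The balance of these 2 markers thus differed between the T pools. Of 12 macrophage markers, 12 were detected in each NK library, 11 in T pool 1 and 8 in T pool 2. Their sum was 1047 and 230.1 in NK pools 1 and 2, against 269.8 and 27.6 in T pools 1 and 2. Neutrophil markers summed to 12.4 to 92.0 (highest in T pool 1), dendritic markers to 0.709 to 11.0, B cell markers to at most 1.06 and epithelial markers to at most 6.61. Stromal markers summed to 155 and 263 against 63.9 and 91.4. This was nearly all Pecam1, which leukocytes also express, and Dcn, Pdgfra and Cdh5 were at 0. Of 5 mast cell markers only Cma1 had reads, at 12.6 and 13.5 in NK cells. In bulk libraries, fewer cells of a type and less RNA per cell cannot be told apart.

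No Rab gene was shown to differ between tumour NK and T cells. Of the 57 genes, 10 had no read in any library, 6 had reads but a mean under 1 normalized CPM, and 41 were tested. Of these, 0 passed the threshold in either direction (limma, Benjamini-Hochberg adjusted p under 0.05 over 12105 genes). Among all genes tested 2.31% passed, so a count of 0 is close to the background and is no result about the family. At an unadjusted p under 0.05 there were 2 Rab genes, Rab11a and Rab31, while 12.8% of all genes reached that level. The lowest adjusted p of a Rab gene was 0.298 by limma, 0.338 by edgeR and 0.393 by DESeq2, and 0.0609 in limma with the replicate number as a block. Each called 0 Rab genes, while edgeR called 2.73% of all genes, DESeq2 3.64% and the replicate block 8.28%.

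Log2 fold changes give NK cells relative to T cells as differences of log2(value + 1), a scale that understates the change of low genes. The 41 tested Rab genes split into 21 with a positive and 20 with a negative value, and their median was 0.01, beside a median of 0.02 over all genes tested. The median size of the difference, whatever its sign, was 0.37 for the Rab genes and 0.52 for all genes. The median level was 18.8 normalized CPM for the Rab genes and 13.3 for all genes. Both NK values lay above both T values for 7 Rab genes, beside 22.1% of all genes, and below them for 8, beside 21.3%. These 15 genes are 36.6% of those tested, beside 43.4% of all genes. Among them Rab17 met the filter through its NK values alone. Rab26, with no NK read, and Rab23, with means of 0.912 in NK and 2.99 in T cells, met it through their T values. The place of Rab17, Rab26 and Rab23 in these counts therefore adds no support.

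**Figure D1:**
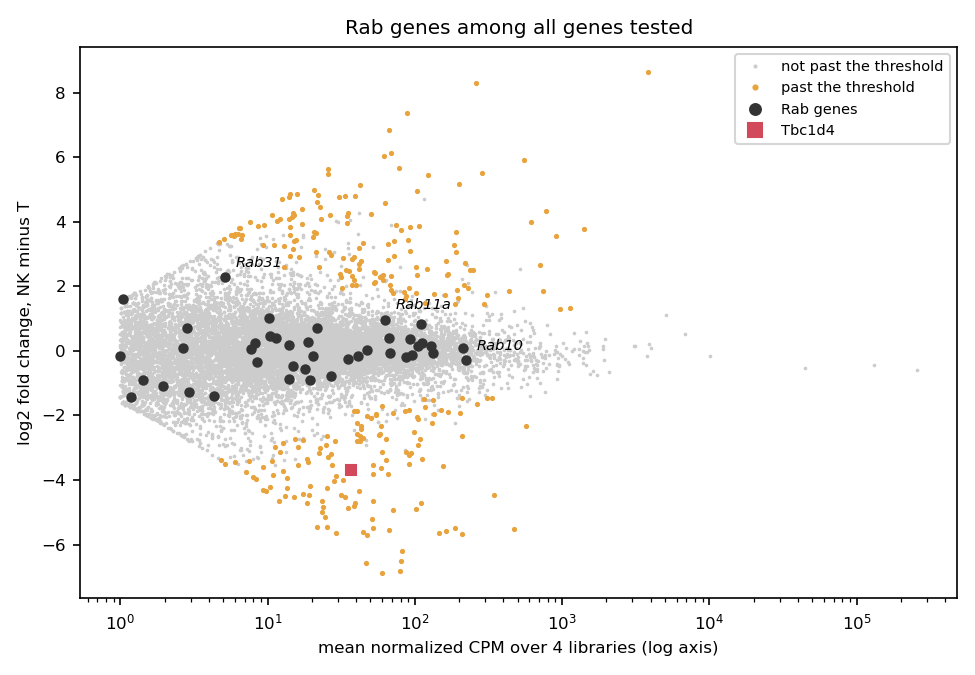
Log2 fold change (NK minus T, vertical axis) against the mean normalized CPM over 4 libraries (horizontal log axis) for the 12105 genes tested, with genes past the threshold in orange, the 41 Rab genes in black and Tbc1d4 as a red square. The black points lie within the grey cloud, from -1.44 to 2.28, and Tbc1d4 lies below it at -3.68.

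The data bound the difference for the abundant members. For 9 Rab genes the 95% interval of the log2 fold change (limma) lay wholly between -1 and 1, which is less than a doubling or halving on this scale. They were Rab10, Rab8a, Rab2a, Rab6a and Rab18 of the secretory group, Rab14, Rab11b and Rab35 of the endosomal group, and Rab7. All 9 are among the 19 Rab genes whose mean reached 20 normalized CPM. Over all genes with such a mean, 868 of 4871 had an interval that narrow, and 7.17% of all genes tested did. For the other tested Rab genes the interval reached past -1 or 1, so a change of that size was not resolved at this depth and replication.

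**Figure D2:**
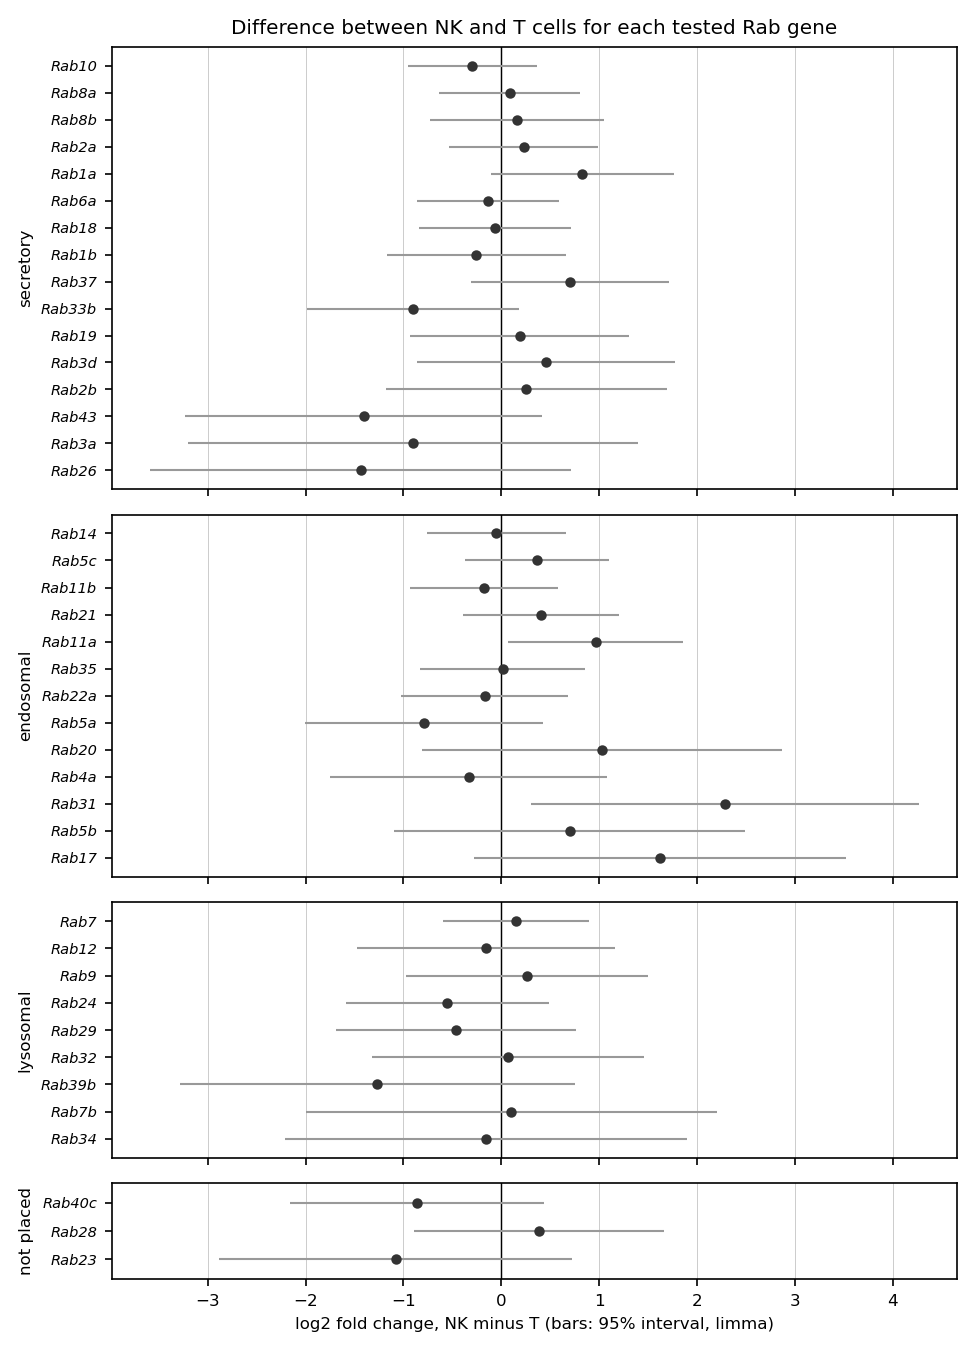
Log2 fold change (NK minus T, horizontal axis) of each tested Rab gene with its 95% interval from limma (bars), grouped by compartment and ordered by mean level within each. Every interval includes 0 except those of Rab11a (0.07 to 1.86) and Rab31 (0.30 to 4.27), and the intervals widen towards the less abundant genes at the foot of each panel.

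To compare levels between genes, values were divided by the annotated exon length of the gene (normalized CPM per kb). On this scale the same Rab genes led in both cell types. Rab10, which carries vesicles from the Golgi and endosomes to the cell surface, had the highest mean, at 56.9 per kb in NK cells and 69.9 in T cells. Rab2a, which acts between the endoplasmic reticulum and the Golgi, came next at 56.7 and 48.5 per kb. In NK cells their order changed with the pool, with Rab10 at 54.2 and 59.6 and Rab2a at 49.4 and 64.0 per kb in pools 1 and 2. Rab8a, a GTPase of transport to the plasma membrane, Rab5c of early endosomes and Rab7 of late endosomes filled ranks 3 to 5 in both, in changing order. Their per-kb levels were 46.3 and 44.6 for Rab8a, 47.8 and 37.2 for Rab5c, and 42.4 and 38.2 for Rab7, in NK and T cells. These ranks rest on means. In T pool 1 Rab8a, at 54.0 per kb, stood above Rab2a at 40.5, and in T pool 2 below it, at 35.1 against 56.5. The 10 genes with the highest mean per kb held 71.9% and 70.0% of the summed per-kb Rab signal in NK pools 1 and 2, and 65.2% and 69.2% in T pools 1 and 2.

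Secretory genes made up 54.1% and 55.3% of the summed per-kb Rab signal in NK pools 1 and 2 and 57.1% and 56.5% in T pools 1 and 2. Endosomal genes made up 30.7% and 27.8% in NK cells and 25.4% and 24.9% in T cells. Lysosomal genes made up 14.2% and 15.6% against 16.1% and 16.8%. The endosomal share was higher in both NK libraries than in both T libraries. The secretory and lysosomal shares were lower, the lysosomal ones by little (15.6% in NK pool 2 against 16.1% in T pool 1). Shares add to a fixed total, so a larger endosomal sum lowers the others. Secretory per-kb sums overlapped (274.3 and 319.3 for NK pools 1 and 2, 279.4 and 301.2 for T pools 1 and 2). So did lysosomal sums (72.2 and 89.9, against 78.7 and 89.6). Endosomal sums lay apart (155.4 and 160.5, against 124.2 and 132.7). Among endosomal genes Rab11a (NK mean 27.9 per kb, T mean 14.0) and Rab5c (47.8, against 37.2) differed most. No test was made on these sums.

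Across the 41 tested genes, the log2 levels of NK pools 1 and 2 had a Spearman rho of 0.924 and those of T pools 1 and 2 of 0.934. Between NK and T libraries rho ran from 0.894 to 0.962. These are descriptions across genes, which are not independent replicates and share each library's depth. The highest of the 6 values was that between NK pool 2 and T pool 2.

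**Figure D3:**
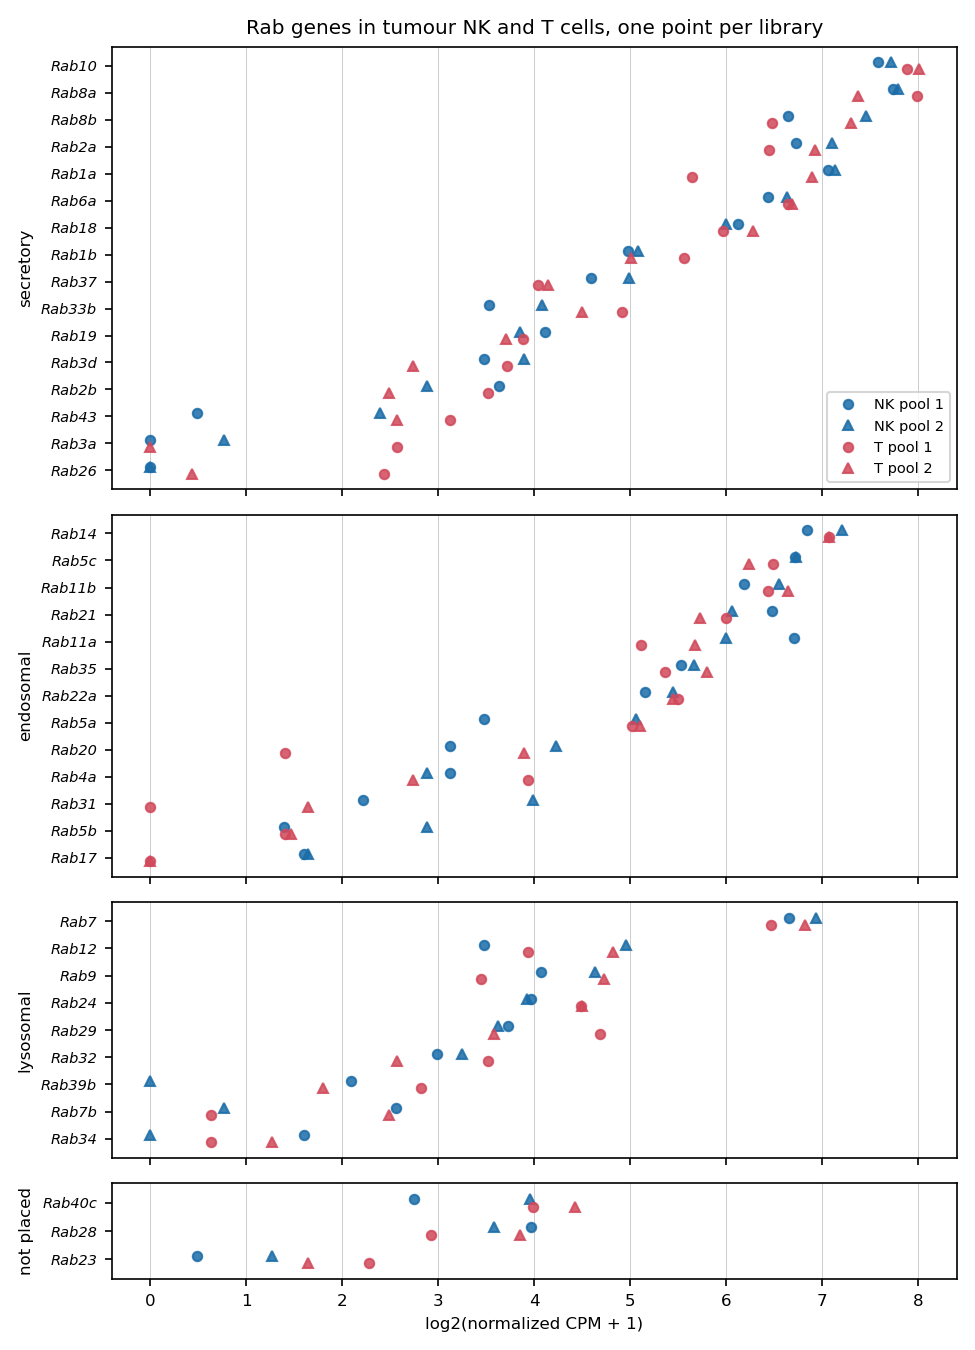
Level of each tested Rab gene in log2(normalized CPM + 1) on the horizontal axis, grouped by compartment, with blue for NK cells, red for T cells, circles for pool 1 and triangles for pool 2. The values carry no length correction, so points are compared along a row and not between rows. In most rows blue and red overlap. Both blue points lie to the right of both red points in 7 rows (Rab1a, Rab37, Rab5c, Rab11a, Rab21, Rab31 and Rab17). They lie to the left in 8 rows (Rab10, Rab6a, Rab33b, Rab43, Rab26, Rab24, Rab40c and Rab23).

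Among the secretory Rab genes 0 of 16 tested members passed the threshold (0 at an unadjusted p under 0.05, and 0 by edgeR). Their median log2 fold change was 0.01, with 8 members on each side of 0. The groups lay apart with NK cells higher for Rab1a and Rab37, and with T cells higher for Rab10, Rab6a, Rab33b, Rab43 and Rab26, beside 22.1% and 21.3% of all genes. Rab26 met the filter through its T values alone, so its place among them, and in the median, adds no support. Rab10 stood at 190.4 and 209.5 in NK pools 1 and 2 and at 235 and 256 in T pools 1 and 2. Both T values were higher, and the log2 fold change was -0.30 (SE 0.30, limma adjusted p = 0.733). Rab8a stood at 213 and 220.2 in NK cells and at 253 and 164 in T cells, so the T values lay on either side of the NK values (log2 fold change 0.09, SE 0.32, limma adjusted p = 0.942). Its relative Rab8b, which also serves transport to the cell surface, stood at 99.2 and 175 against 88.1 and 157 (log2 fold change 0.16, SE 0.40, limma adjusted p = 0.909). In both cell types Rab8b was higher in pool 2, and the groups overlapped. Rab2a stood at 105 and 137 against 86.5 and 120.5. Rab6a, which moves cargo within and out of the Golgi, stood at 85.4 and 98.2 against 99.1 and 102, and Rab18, linked to lipid droplets and the endoplasmic reticulum, at 68.7 and 62.8 against 61.7 and 76.5. Rab1b, the relative of Rab1a described next, had means of 31.7 and 38.7 in NK and T cells, and Rab19, a Golgi-associated member, of 14.9 and 12.9.

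Rab1a, which controls transport from the endoplasmic reticulum to the Golgi, had the largest positive value in the secretory group. It stood at 133 and 139.7 in NK pools 1 and 2 and at 49.0 and 118 in T pools 1 and 2. Both NK values were above both T values, but T pool 1 was far below T pool 2. The log2 fold change was 0.83 (SE 0.42, limma adjusted p = 0.464), 1.42 within pool 1 and 0.24 within pool 2, and 0.20 without T replicate 1. T pool 1 is also the library with the highest share of ribosomal RNA reads and the highest neutrophil marker sum. It had more Cd4 and less Cd8a than T pool 2. The part of these in the Rab1a value was not tested. Rab37, a GTPase of secretory granules, stood at 23.2 and 30.8 against 15.4 and 16.7 (log2 fold change 0.70, SE 0.46, limma adjusted p = 0.571). Rab3d, of the secretory granule subfamily that includes the neuronal Rab3a, stood at 10.2 and 13.8 against 12.1 and 5.67, so the groups overlapped.

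On the T side of the secretory group, Rab33b, a Golgi GTPase that also binds the autophagy machinery, stood at 10.6 and 16.0 in NK cells and at 29.2 and 21.6 in T cells. The groups did not overlap, and the log2 fold change was -0.90 (SE 0.49, limma adjusted p = 0.503). Rab43, a Golgi-associated member, stood at 0.407 and 4.25 against 7.71 and 4.96 (log2 fold change -1.41, SE 0.82, limma adjusted p = 0.541). NK pool 1 had 1 read of it. Most of its exon length (75.4%) is shared on the same strand with the gene model Gm45140, so its reads cannot be fully assigned. Rab26, which acts in granule maturation, had 0 NK reads and 9 T reads, 8 of them in T pool 1. Its exons share 9.36% of their length with Traf7 on the same strand, and it met the filter (mean 1.19) through the T libraries alone. Taking 3 reads over both NK libraries (0.568 normalized CPM) as the limit, its T level was at least 3.41-fold higher. This makes no allowance for counting error in the 9 T reads, and Rab26 did not pass the test (limma adjusted p = 0.590). T pool 2 alone, with 1 read (0.354 normalized CPM), is under that limit and gives no bound. Rab3a had 2 NK reads and 9 T reads, all 9 in T pool 1 (log2 fold change -0.90, SE 1.04, limma adjusted p = 0.774). Rab3b, Rab3c, Rab6b, Rab33a and Rab40b had 0 reads in all libraries, and Rab30 had 2.

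Endosomal Rab genes had the 2 lowest p-values of the family, although 0 of 13 tested members passed (2 at an unadjusted p under 0.05, and 0 by edgeR). Their median log2 fold change was 0.37, with 8 positive and 5 negative. For 5 members, Rab5c, Rab11a, Rab21, Rab31 and Rab17, both NK values lay above both T values, and for 0 below, beside 22.1% and 21.3% of all genes, with no test of the group. Of these, Rab17 was at 0 in both T libraries and met the filter (mean 1.04) through its NK values alone. Its place among them, and in the median, therefore adds no support. The median log2 fold change fell to 0.01 when genes under 5 normalized CPM were left out, and to -0.05 without NK replicate 2. Rab11a, the main GTPase of the recycling endosome, stood at 104 and 63.1 in NK pools 1 and 2 and at 33.6 and 50.0 in T pools 1 and 2. Both NK values were higher, and the log2 fold change was 0.96 (SE 0.41, limma adjusted p = 0.343, and 0.0609 with the replicate block). The difference was 1.60 within pool 1 and 0.33 within pool 2, and between 0.61 and 1.32 with each library left out. Over recovered reads the NK to T ratio was 1.88, with an exact 95% interval of 1.59 to 2.24 that covers counting error only. The gene lies on the minus strand at chr9:64715299-64737758 (GRCm38), and its exons also hold a microRNA gene model, Gm47308.

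Rab11b, the close relative that also serves recycling, had groups that overlapped. It stood at 71.6 and 92.5 in NK cells and at 85.4 and 99.2 in T cells, and its log2 fold change was -0.18 (SE 0.34, interval -0.93 to 0.58). The share of Rab11 reads that fell on Rab11a was 59.2% and 40.5% in NK pools 1 and 2, and 28.2% and 33.5% in T pools 1 and 2. Their exact 95% binomial intervals were 54.4% to 63.8%, 35.9% to 45.3%, 22.3% to 34.7% and 29.0% to 38.2% in that order. Both NK shares were above both T shares, and the interval of NK pool 2 met that of T pool 2.

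Because paralogs are compared here, the coding sequences were checked for stretches that reads could not tell apart. The windows below, read from the GENCODE M21 transcripts on GRCm38, hold 90 coding bases around the longest run that each pair shares in its coding sequence, with capitals at the bases that differ. They show the Rab11 pair (coding bases 1 to 90 in each, both minus strand, chromosomes 9 and 17), whose read shares are given above, and the Rab1 pair (281 to 370 of Rab1a, plus strand of chromosome 11, and 272 to 361 of Rab1b, minus strand of chromosome 19), which has the longest shared run of those compared.
Rab11a: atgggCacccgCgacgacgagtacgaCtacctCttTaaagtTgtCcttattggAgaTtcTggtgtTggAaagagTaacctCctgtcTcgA
Rab11b: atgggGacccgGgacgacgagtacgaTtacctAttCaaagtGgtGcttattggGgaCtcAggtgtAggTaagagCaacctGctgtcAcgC
Rab1a: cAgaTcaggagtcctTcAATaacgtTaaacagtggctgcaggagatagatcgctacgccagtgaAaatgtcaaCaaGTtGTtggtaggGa
Rab1b: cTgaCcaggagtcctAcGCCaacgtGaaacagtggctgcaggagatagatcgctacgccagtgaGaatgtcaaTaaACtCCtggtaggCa
The Rab11 windows differ at 16 bases and the Rab1 windows at 14. Over the aligned coding sequence Rab11a and Rab11b are 75.8% identical and share no run longer than 14 bases, in the whole transcript as well. Rab1a and Rab1b are 77.6% identical, with a longest shared run of 38 bases. The pairs Rab2a and Rab2b, Rab8a and Rab8b, Rab4a and Rab4b and those of Rab5a, Rab5b and Rab5c are 73.9% to 77.9% identical, with longest runs of 17 to 35 bases. The sources used here do not state the read length, so how many reads could have been split between paralogs is unknown.

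Rab31, a relative of Rab5 that works between the Golgi and endosomes, had the largest positive value of the family. It stood at 3.66 and 14.9 in NK pools 1 and 2 and at 0 and 2.13 in T pools 1 and 2. Both NK values were above both T values, and the log2 fold change was 2.28 (SE 0.90, limma adjusted p = 0.298). It was 1.40 without NK replicate 2, 1.46 without T replicate 1, 3.17 without NK replicate 1 and 3.11 without T replicate 2, and 3.32 with a pseudocount of 0.25. Behind it are 51 NK reads and 6 T reads, a ratio of 7.47 with an exact 95% interval of 3.20 to 21.3 for counting error only. The gene lies on the minus strand at chr17:65651729-65772752. Rab31 is also found in macrophages, whose summed markers were 1047 and 230.1 in the NK libraries and 269.8 and 27.6 in the T libraries; their part in this value was not tested. Rab20, a GTPase of phagosomes and early endosomes, stood at 7.73 and 17.7 in NK cells and at 1.65 and 13.8 in T cells, so the groups overlapped and T pool 1 was lowest (log2 fold change 1.03, SE 0.83, limma adjusted p = 0.668). The sign turned without T replicate 1, at -0.21, and the value was 2.27 without T replicate 2. Rab17, known from epithelial cells, had 11 NK reads and 0 T reads. With 3 reads over both T libraries (0.647 normalized CPM) as the limit, its measured NK level was at least 3.22-fold higher. This bound makes no allowance for counting error in the 11 NK reads. Rab17 did not pass the test (limma adjusted p = 0.483), and it met the filter through its NK values alone, so no difference was shown.

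The Rab5 genes, which drive fusion of early endosomes, were led by Rab5c, whose mean in NK cells was 47.8 normalized CPM per kb against 4.03 for Rab5a and 0.953 for Rab5b. Without length correction Rab5c stood at 105 and 105 in NK cells and at 88.7 and 74.4 in T cells, where both NK values were higher (log2 fold change 0.37, SE 0.33, limma adjusted p = 0.701). Rab5a stood at 10.2 and 32.3 in NK cells and at 31.4 and 33.3 in T cells, so NK pool 1 alone was low. The log2 fold change was -0.79 (SE 0.55, limma adjusted p = 0.606), and -0.003 without NK replicate 1. The share of Rab5 reads that fell on Rab5a was 8.74% in NK pool 1 (exact 95% interval 5.74% to 12.6%) and 22.4%, 25.8% and 30.4% in NK pool 2, T pool 1 and T pool 2. Rab5b was low, at 1.63 and 6.38 against 1.65 and 1.77.

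**Figure D4:**
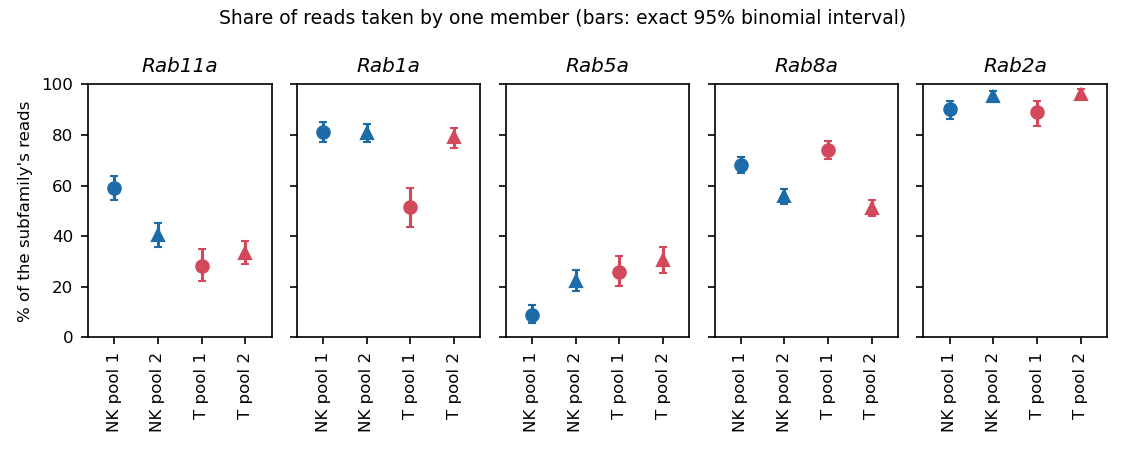
Percentage of a subfamily's reads (vertical axis) that fell on Rab11a, Rab1a, Rab5a, Rab8a and Rab2a in each library, with exact 95% binomial intervals for counting error (bars), blue for NK cells and red for T cells. Rab11a takes 59.2% and 40.5% in the NK libraries and 28.2% and 33.5% in the T libraries; Rab1a is low in T pool 1 and Rab5a in NK pool 1, while Rab8a is higher in pool 1 of both cell types.

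Of the other tested endosomal genes, Rab21 alone had groups that did not overlap. Rab14, which links the Golgi and early endosomes, stood at 113 and 147 against 134 and 134 (log2 fold change -0.05, interval -0.76 to 0.66). Rab35, a GTPase of fast recycling, had means of 47.4 ± 3.17 (SD, n = 2) in NK cells and 47.4 ± 10.2 in T cells. Rab21, which moves integrins, was higher in both NK libraries at 87.9 and 65.9 against 62.8 and 52.1 (log2 fold change 0.41, SE 0.36, limma adjusted p = 0.693). Rab22a, an early endosome GTPase, had means of 38.6 and 43.3, and Rab4a, of fast recycling, of 7.06 and 9.99. Rab15 had 7 reads, all in NK pool 1, Rab4b had 1, and Rab13 and Rab25, both known from epithelia, had 0. Most of the exon length of Rab4b (65.0%) is shared on the same strand with the gene model Gm21983, so its reads cannot be fully assigned.

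Among the lysosomal Rab genes 0 of 9 tested members passed the threshold (0 at an unadjusted p under 0.05, and 0 by edgeR). Their median log2 fold change was -0.15, with 4 positive and 5 negative, and it turned to 0.17 without T replicate 2. Rab7, which drives fusion of late endosomes with lysosomes, was the most abundant of them per kb. It stood at 100.1 and 121 in NK pools 1 and 2 and at 87.6 and 112 in T pools 1 and 2, so the groups overlapped (log2 fold change 0.15, interval -0.59 to 0.89). Rab9, which returns receptors from late endosomes to the Golgi, stood at 15.9 and 23.8 against 9.91 and 25.5 (log2 fold change 0.26, SE 0.56, limma adjusted p = 0.890). Rab12, which sends recycling cargo to degradation, stood at 10.2 and 30.1 against 14.3 and 27.3, and both pool 2 values were above both pool 1 values (log2 fold change -0.16, SE 0.60, limma adjusted p = 0.942).

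Rab24, an autophagy-linked member, was the single lysosomal gene whose groups lay apart, at 14.6 and 14.2 in NK cells and 21.5 and 21.6 in T cells. The log2 fold change was -0.55 (SE 0.47, limma adjusted p = 0.681). Of its exon length 62.4% overlaps Prelid1 on the opposite strand, and with no stated strand setting reads of the 2 genes cannot be told apart. The same limit holds for smaller opposite-strand overlaps. They include Rab20 with E230013L22Rik (25.6%), Rab6a with Mrpl48 (19.0%), Rab33b with Gm38160 (18.7%) and Rab39b with Gm15063 (18.6%). Rab32, a GTPase of lysosome-related organelles, had means of 7.71 in both cell types, at 6.91 and 8.51 against 10.5 and 4.96. Rab29, a partner of the kinase Lrrk2, stood at 12.2 and 11.3 in NK cells and at 24.8 and 11.0 in T cells, where T pool 1 alone was high (log2 fold change -0.46, SE 0.55, limma adjusted p = 0.785). Rab39b, a neuronal member, stood at 3.25 and 0 in NK cells and at 6.06 and 2.48 in T cells, so the groups overlapped (log2 fold change -1.26, SE 0.91, limma adjusted p = 0.620). Rab7b had 14 NK and 14 T reads, and Rab34 5 and 5. Rab9b, Rab36 and Rab38, a melanosome GTPase, had 0 reads in all libraries, and Rab39, Rab42 and Rab44 had 3, 4 and 1 in all. A gene with 0 reads in a library could still stand at up to 1.06 to 1.65 normalized CPM, the value of 3 reads.

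Of the 3 genes placed in no compartment, Rab40c, which belongs to a ubiquitin ligase subfamily, stood at 5.69 and 14.5 in NK cells and 14.9 and 20.6 in T cells (log2 fold change -0.86, SE 0.58, limma adjusted p = 0.593). Rab28 and Rab23, both linked to cilia, had log2 fold changes of 0.38 (SE 0.58) and -1.08 (SE 0.81), the latter on 18 reads.

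Genes that switch Rab proteins on and off were read from the same fit, using a list drawn up by known role: 8 of the carrier and prenylation cycle, 37 linked to exchange factors, 32 activating proteins and 39 effectors or their complexes. Of 116 listed, 104 were tested, and 1 passed the threshold, with T cells higher. At an unadjusted p under 0.05 there were 12, beside 12.8% of all genes. With 1.09% of all genes called in that direction, 1 of 104 is close to the background. The same single count came from edgeR, DESeq2 called 2 (Tbc1d4 and Tbc1d1), and the replicate block gave 8, of which 2 were higher in NK cells and 6 lower. The block raised the count of all genes from 280 (2.31%) to 1002 (8.28%) as well. It leaves 1 residual degree of freedom per gene, so its p-values lean on a spread estimated across all genes.

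The gene past the threshold was Tbc1d4, also called AS160, which turns off Rab8, Rab10 and Rab14 and is known for holding back glucose transporter vesicles until insulin acts. It stood at 5.29 and 3.19 in NK pools 1 and 2 and at 44.6 and 94.3 in T pools 1 and 2. The groups lay far apart, and the log2 fold change was -3.68 (SE 0.54, limma adjusted p = 0.00589). The gene lies on the minus strand at chr14:101442360-101609191. By edgeR the adjusted p was 0.00252, and with each library left out edgeR gave values from 2.54e-05 to 0.00405, while limma called 0 of all genes tested with a library left out (Tbc1d4 adjusted p 0.319 to 0.785). The log2 fold change stayed between -4.21 and -3.15 in those limma fits. The known target genes Rab8a, Rab10 and Rab14 had log2 fold changes of 0.09, -0.30 and -0.05.

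Tbc1d1, the closest relative of Tbc1d4, stood at 13.0 and 15.2 in NK cells and at 61.1 and 37.6 in T cells (log2 fold change -1.70, SE 0.45, limma adjusted p = 0.0950). It is named, as are the genes that follow, because it passed with the replicate block, a choice made after the values were seen. Rab11fip1 and Rab11fip4, effectors that bind Rab11 on recycling endosomes, were also lower in both NK libraries. Rab11fip1 stood at 6.10 and 9.57 against 28.1 and 32.6 (log2 fold change -1.85, SE 0.50, limma adjusted p = 0.104). Rab11fip4 stood at 1.22 and 5.67 against 18.7 and 12.8 (log2 fold change -2.10, SE 0.70, limma adjusted p = 0.204).

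Among exchange factors of the DENN family, Dennd3, which acts on Rab12, stood at 10.2 and 16.3 in NK cells and at 0.551 and 2.48 in T cells (log2 fold change 2.58, SE 0.72, limma adjusted p = 0.115). Dennd5a stood at 6.51 and 13.1 against 30.3 and 28.3, and Dennd2d at 51.7 and 37.6 against 97.5 and 87.5, both higher in each T library (limma adjusted p = 0.195 and 0.222). Tbc1d2b, an activating protein, stood at 47.6 and 41.8 against 17.1 and 14.5 (limma adjusted p = 0.135). With the replicate block these 8 genes had limma adjusted p-values from 1.20e-11 for Tbc1d4 to 0.0302 for Rab11fip4. In the carrier and prenylation cycle 0 of 8 passed, and 7 of the 8 had a negative log2 fold change, with a median of -0.36. Over all genes tested 5938 of 12105 were negative, with a median of 0.02. Negative values were found for 19 of 32 tested exchange factor genes, 18 of 28 activating proteins and 15 of 36 effectors, whose median was 0.22. No test was made of these counts.

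**Figure D5:**
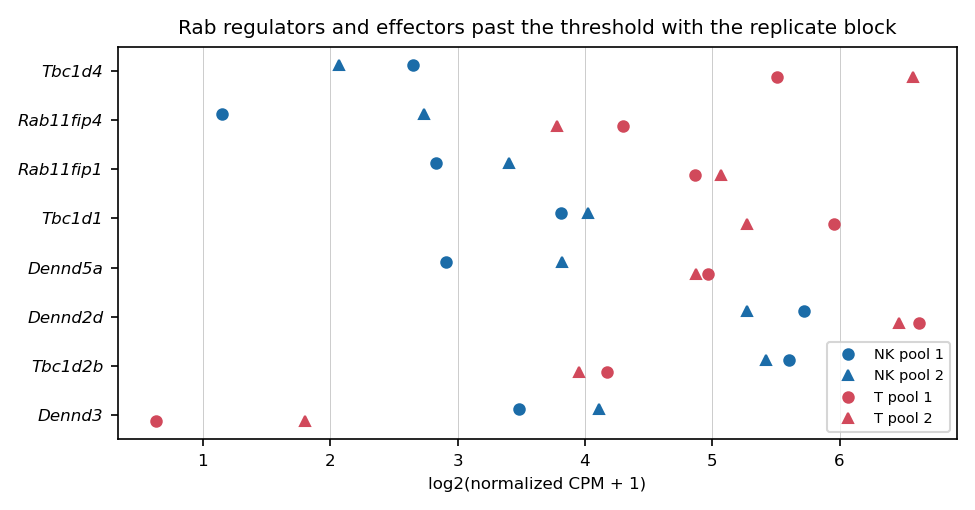
Level in log2(normalized CPM + 1) on the horizontal axis of the 8 Rab regulators and effectors that passed with the replicate block, with blue for NK cells, red for T cells, circles for pool 1 and triangles for pool 2. In each row both points of a cell type lie to the same side of the other, widest for Tbc1d4, the gene that also passed without the block.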

How the data were processed

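The deposited table holds 1 normalized signal column per library for 55450 genes, per the file headers. STAR 2.7.0f and Bowtie2 2.3.4.1 appear in the submitters' processing notes, as do limma, FastQC and the build GRCm38.p6, all without roles. The sources used here do not state how reads were counted and normalized, or with what strand setting. Every value was a whole multiple of a fixed step in its library (tolerance 0.001 reads, 100% of values), so whole reads were recovered. The implied scaling factors were 0.878 to 1.10, and recomputed TMM factors were 0.878 to 1.10. The values tested carry no correction for gene length. The per-kb values were divided by the length of all annotated exons of a gene, merged where they overlap, whichever transcripts the cells use. Rows without a symbol (0.0198% to 0.0214% of reads) were left out, 27 symbols turned into dates were restored, and where rows shared a symbol the one of highest mean was used. All 55450 identifiers were found in GENCODE M21, which gave coordinates and exon lengths.

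Genes with a mean of at least 1 were tested as log2(value + 1) with limma 3.58.1 in R 4.3.3 (trend, Benjamini-Hochberg at 0.05), NK minus T, without a block. Alternatives used edgeR 4.0.16, DESeq2 1.42.0 (an adjusted p that DESeq2 gave as NA stayed NA), other pseudocounts, filters and scalings, a replicate block, and each library left out. Numbers 1 and 2 stand for pools of 4 and 6 mice in the series' text, and on that ground same-numbered libraries were taken as pairs in the block, although it is not stated that both cell types came from the same mice. Across genes the pool difference in NK cells correlated with that in T cells at 0.162. A replicate is a pool. The limma p-values weigh a gene's own spread between 2 pools per cell type together with a spread estimated across all genes. That shared spread supplies most of the 10.4 degrees of freedom (median) behind them in the main test. Each pair of libraries differed beyond sampling noise (10.3 to 32.5 chi-square units per degree of freedom).

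The members and lists were chosen with earlier results of these data known. Values were given for Rab genes past the threshold, for the 4 with the largest log2 fold change and the 3 most abundant per compartment, for those with a mean of at least 5 whose pools differed over 4-fold, and for listed regulators past the threshold. Other members are given so that each is accounted for.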

Additional observations from a re-analysis of the deposited data

How the results depend on the processing

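The count of 0 Rab genes past the threshold held under all 17 alternatives run. The count of all genes, 280, became 162 with a pseudocount of 0.25, 441 with DESeq2, 1002 with the replicate block, 0 with any library left out in limma, and 324 to 489 with a library left out in edgeR, an alternative chosen after seeing the data. Regulators and effectors past the threshold, 1 in the main test, numbered 2 with DESeq2, 8 with the replicate block, and 0 to 2 with a library left out. The endosomal median log2 fold change of 0.37 became 0.0148 under a filter at 5 normalized CPM, which leaves 11 genes, and ranged from -0.0767 to 0.308 with a library left out. The lysosomal median of -0.15 ranged from -0.617 to 0.307 with a library left out. The secretory median of 0.01 moved by less than its pool spread of 0.264 in every fit, but changed sign in several, from -0.197 to 0.162. The cause of these shifts was not tested. Of 20 Rab genes named by rule, 10 kept their sign under each alternative that gave a value, Rab3a, Rab7, Rab8a, Rab8b, Rab9, Rab11b, Rab12, Rab14, Rab20 and Rab29 did not, and 0 were called anywhere. Of the 10 that kept their sign, all but Rab39b had groups that lay apart. For such genes leaving out a library in limma cannot turn the sign, and the block leaves the fold change as it was. Under those alternatives a kept sign therefore adds no support beyond the lack of overlap. The replicate block changed no call on a Rab gene. Depth limits the low members, since 1 read is worth 0.354 to 0.551 normalized CPM.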

Other observations

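The split of Rab genes by pool of mice was near that of all genes. Both pool 2 values lay above both pool 1 values for 10 of 41 tested Rab genes (24.4%, beside 18.25% of all genes), and below them for 5 (12.2%, beside 15.3%). The former were Rab11b, Rab12, Rab20, Rab2a, Rab35, Rab5a, Rab5b, Rab7, Rab8b and Rab9. Rab8b, a relative of Rab8a in transport to the cell surface, was at 99.2 (NK) and 88.1 (T) in pool 1 and at 175 and 157 in pool 2. Rab8a took 68.2% and 74.2% of Rab8 reads in pool 1 and 55.7% and 51.2% in pool 2. Rab2b was lower in pool 2 of both cell types, at 11.4 and 10.5 against 6.38 and 4.61, though 59.3% of its exon length overlaps the gene model Gm43766 on the opposite strand. The pools differ in the number of mice, and whatever else differs between them cannot be told apart. No test was made of this split.

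The annotated processed pseudogenes Rab5a-ps, Rab7-ps1, Rab9b-ps1 and Rab11b-ps2 had 0 reads in all libraries. Rab10os, an antisense transcript that shares 143 bases of exon with Rab10, was at 19.1 and 22.7 in NK pools 1 and 2, against 13.8 and 30.1 in T pools 1 and 2.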
